A study of Rattus norvegicus with 18 samples.

Results

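Reads with G in place of the reference A were measured in rno-miR-376b-3p, rno-miR-378 and rno-miR-137 across rat cortical development. These 3 miRNAs are 3 of the 692 distinct mature rat sequences used here, and they were selected on their measured A-to-G shares in these same libraries, so the shares below are given as a description, without a test. Small RNA of Sprague Dawley rats had been sequenced in 9 tissue samples from 8 stages, at embryonic days E10, E13 and E17 and at postnatal days P0, P3, P7, P14 and P28. In the labels the tissue is forebrain for E10 and E13 and cortex or somatosensory cortex afterwards, whereas the methods give the whole cortex at the 2 early stages and its dorsolateral region from E17 on, so stage and dissection cannot be told apart between E13 and E17. P0 was represented by 2 tissue samples, every other stage by 1, and each sample was sequenced in 2 technical runs. No animal was treated, and no source used here says whether animals were pooled.

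ADAR enzymes deaminate adenosine to inosine in double-stranded RNA, and reverse transcriptase reads inosine as guanosine. Primary miRNA transcripts fold into hairpins and are known substrates of these enzymes in the brain. A changed base within the seed, positions 2 to 8 from the 5' end, alters the bases with which a miRNA pairs to its target mRNAs. The miR-376 family belongs to the imprinted miRNA cluster at the Dlk1-Dio3 locus. miR-378 lies within the gene of the coactivator PGC-1beta and is known from mitochondrial metabolism, and miR-137 is known from neuronal differentiation and synapse maturation. The tag files hold no reads of genomic DNA. The study also sequenced genomic DNA of P7 cortex at miR-376b, which was not used here, and the shares below were not compared with DNA.

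The unchanged mature sequences show where the changes fell, with the seed in capitals. They were taken from RefSeq (GRCr8). The tag files carry no coordinates.
rno-miR-376b-3p: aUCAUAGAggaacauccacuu
rno-miR-378: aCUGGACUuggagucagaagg
rno-miR-137: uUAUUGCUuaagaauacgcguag
rno-miR-376b-3p lies at chr6:134558913-134558933 on the plus strand, inside Mir376b and the lncRNA gene LOC102555254. rno-miR-378, listed by RefSeq as rno-miR-378a-3p, lies at chr18:57128925-57128945 on the minus strand, inside Mir378, Mir3557 and the protein-coding gene Ppargc1b. rno-miR-137, listed as rno-miR-137-3p, lies at chr2:209165767-209165789 on the plus strand, inside Mir137 and the lncRNA gene LOC120100931. The table used gives no exons, so intron or exon was not assigned.

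The changed forms are printed as full mature sequences with G put in at the changed base, in capitals. Positions count from 1 at the 5' end of the mature sequence. In the order printed, reads identical to the line numbered 8701 of 28100, 618 of 1556, 305 of 6650, 12 of 276, 7 of 54 and 1 of 245. The remaining changed reads differed in length.
rno-miR-376b-3p A6G: aucauGgaggaacauccacuu
rno-miR-378 A6G: acuggGcuuggagucagaagg
rno-miR-378 A16G: acuggacuuggagucGgaagg
rno-miR-378 A6G and A16G: acuggGcuuggagucGgaagg
rno-miR-137 A11G: uuauugcuuaGgaauacgcguag
rno-miR-137 A16G: uuauugcuuaagaauGcgcguag
The change at position 6 turned the seed of rno-miR-376b-3p from UCAUAGA to UCAUGGA and that of rno-miR-378 from CUGGACU to CUGGGCU. No other mature miRNA of the table had any of these 4 seeds. The other 3 sites lay outside the seed. The base before the changed A was U at position 6 of rno-miR-376b-3p and at position 16 of rno-miR-137, A at position 11 of rno-miR-137, G at position 6 of rno-miR-378 and C at position 16 of rno-miR-378. The base after it was G at 3 of the 5 sites and C at the other two, position 6 of rno-miR-378 and position 16 of rno-miR-137. In the predicted minimum free energy fold of the Mir137 hairpin, 102 nt long with a free energy of -49.5 kcal/mol, positions 11 and 16 were both paired with U. Hairpins of the other two miRNAs were not analysed here.

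The libraries held 4899010 to 16590379 clean reads each, and a tissue sample 19910829 to 27464584 over both runs. The longest tag had 30 nt in each run 1 library and 39 nt in each run 2 library. Run 1 gave the higher level in 8 of 9 samples for rno-miR-376b-3p, 9 for rno-miR-378 and 7 for rno-miR-137. Values of run 1 of P0 replicate 1 stood furthest apart from run 2 of the same sample. There rno-miR-376b-3p was 17.5 times higher in run 1, rno-miR-137 13.1 times and rno-miR-378 5.91 times. The study describes the runs of a sample as technical replicates. Pooled shares are therefore also given without that library at the main sites, in rno-miR-376c-3p and by tag length. Of the lists of marker miRNAs for cell types, the 2 neural markers with a sequence, miR-9a-5p and miR-128-3p, summed to 23641 to 185386 TPM (reads per 1000000 clean reads, mean of both runs). miR-124-3p was not analysed here. The 4 mesenchyme markers summed to 31070 TPM at E10 and 42081 TPM at E13 against 528 to 4131 TPM later, and the 2 erythroid markers to 1137 TPM at E10 against at most 98.6 TPM in the other samples. The 3 muscle markers ranged from 13.0 to 1677 TPM, highest at P14, the 2 leukocyte markers reached 28.2 TPM at E10 and at most 1.60 TPM elsewhere, and the liver marker miR-122-5p ranged from 16.2 to 92.3 TPM. The 2 oligodendrocyte markers summed to 21.8 to 287 TPM up to P3 and to 1714, 3563 and 10564 TPM at P7, P14 and P28.

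A share is the number of reads with G at a site, and no other mismatch, divided by the reads that were unchanged or carried any single change at that site. Tags began at the mature 5' end, had at least 18 nt and ran over the mature 3' end by 3 nt or less. Position 1 and the last 3 bases were not searched. Of the 17 adenosines searched, 7 were in rno-miR-376b-3p, 4 in rno-miR-378 and 6 in rno-miR-137. Main sites were those where A to G was the most frequent change in at least 7 of 9 tissue samples and had at least 50 reads and at least 5 times the larger of A to C and A to T over all libraries. This held for 5 of the 17 sites: position 6 of rno-miR-376b-3p, positions 6 and 16 of rno-miR-378, and positions 11 and 16 of rno-miR-137. All 95% Wilson intervals hold counting error alone, with reads taken as independent, and leave out differences between animals and libraries. PCR copies of a molecule can be read more than once, so the intervals can be too narrow.

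**Figure D1:**
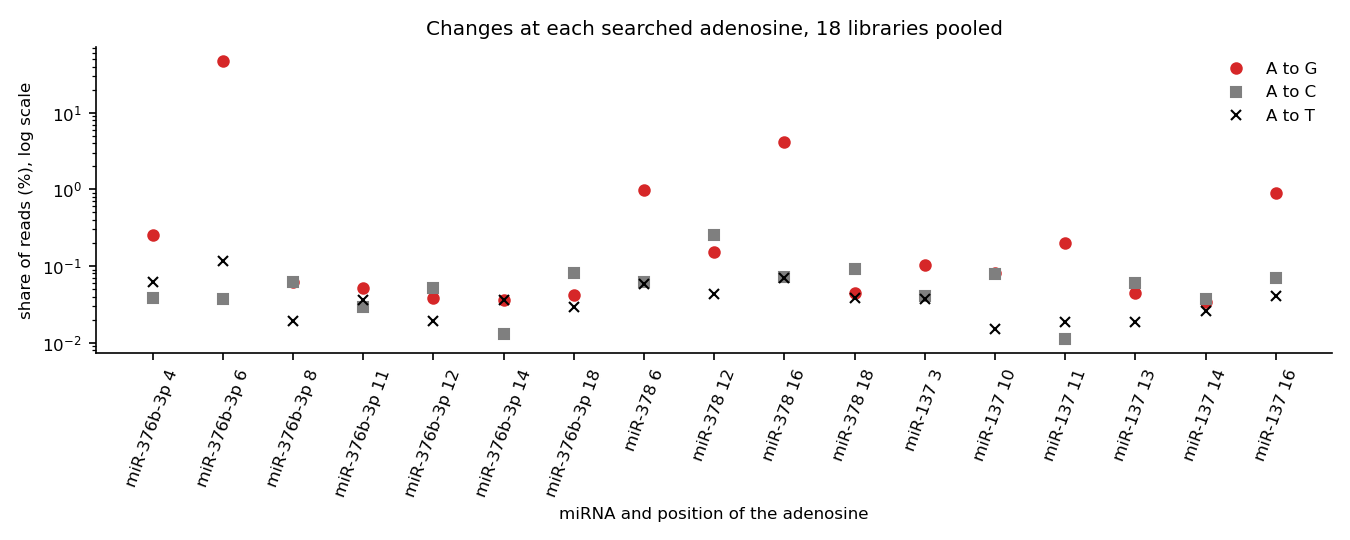
Share of reads (%, log axis) with A to G (red), A to C (grey) and A to T (black) at each of the 17 adenosines searched, over 18 libraries. Position 6 of rno-miR-376b-3p reached 47.6% A to G, and position 16 of rno-miR-378 4.12%, while every A to C and A to T share lay at or below 0.252%.

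Over all 18 libraries, position 6 of rno-miR-376b-3p had G in 28100 of 59095 reads, or 47.6% (95% interval 47.1 to 48.0%). A to C there was 0.0372% and A to T 0.115%. Without run 1 of P0 replicate 1, which gave 13623 of the 30905 unchanged reads, the share was 57.3%. Position 16 of rno-miR-378 followed at 4.12% (6650 of 161584 reads), 56.8 times the larger of the other changes. The other shares were 0.995% at position 6 of rno-miR-378 (1556 reads), 0.903% at position 16 of rno-miR-137 (245 reads) and 0.201% at position 11 of rno-miR-137 (54 reads). Without run 1 of P0 replicate 1 the values were 4.19% and 1.01% at positions 16 and 6 of rno-miR-378, and 1.24% and 0.266% at positions 16 and 11 of rno-miR-137.

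The site just outside the rule was position 4 of rno-miR-376b-3p, with 79 A to G reads (0.255%), 4.16 times the larger of the other changes. The site just inside it was position 11 of rno-miR-137, at 10.8 times. At position 12 of rno-miR-378, A to C (392 reads, 0.252%) was more frequent than A to G (235 reads, 0.151%). The remaining 10 sites had A to G shares of 0.0335 to 0.104%. Other single changes in the searched stretch, whatever the base, had medians of 0.0388% in rno-miR-376b-3p, 0.0652% in rno-miR-378 and 0.0446% in rno-miR-137, and reached 0.380%, 0.288% and 0.293%. Position 11 of rno-miR-137 was therefore below 4 of the 55 other changes of the same miRNA, whereas the other 4 main sites were above all of them.

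Position 6 of rno-miR-376b-3p had the widest range over the stages. The share was 6.01% at E10, 6.59% at E13, 21.6% at E17, 29.95% in P0 replicate 1, 39.5% in P0 replicate 2, 46.9% at P3, 70.6% at P7, 75.6% at P14 and 87.1% at P28. Reads at the site numbered 1353 (P0 replicate 2) to 21823 (P0 replicate 1). The order of the samples was the order of the stages, and at P28 most reads carried the changed seed. The P0 samples averaged 34.7% ± 6.73 (SD, n = 2) and lay 9.51 points apart. The gap was 14.1 points in run 1, with P0 replicate 1 the lower, and 12.5 points in run 2, with P0 replicate 1 the higher, so that the means of the runs, 38.6% and 39.4%, lay 0.769 points apart. Of the 8 gaps between samples neighbouring in the order of the shares, 3 were wider than the P0 gap with the runs summed: E13 to E17, P3 to P7 and P14 to P28. Against its own P0 gap, that number was 1 in run 1, 2 in run 2 and 6 with the means of the runs. E10 and E13 also had overlapping counting intervals, 5.18 to 6.95% and 5.81 to 7.46%.

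In the same order of samples, run 1 gave 8.09, 6.98, 19.7, 26.1, 40.2, 46.1, 70.3, 74.99 and 87.3%. Run 2 gave 5.02, 5.81, 26.4, 51.1, 38.6, 48.4, 71.4, 76.2 and 86.9%. In run 1 E13 was thus below E10, and in run 2 P0 replicate 1 was above both P0 replicate 2 and P3. The runs differed by 25.0 points in P0 replicate 1, and the median gap between runs over the 9 samples was 1.58 points.

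At position 16 of rno-miR-378 the shares were lower by an order of magnitude. They were 0.773% at E10, 0.983% at E13, 0.550% at E17, 1.43% and 1.62% in the P0 replicates, 2.41% at P3, 3.87% at P7, 4.50% at P14 and 7.53% at P28. The lowest sample was E17 and not E10, and from P0 on the order was that of the stages. The P0 samples averaged 1.52% ± 0.134 (SD, n = 2). With the runs summed, all 4 steps from P0 replicate 2 to P28 were wider than the P0 gap of 0.189 points and had separate counting intervals. The P0 gap was 0.0201 points in run 1, 0.657 in run 2 and 0.339 with the means of the runs. Against these, 7, 4 and 4 of the 8 gaps between neighbouring samples were wider. In the same order of samples, run 1 gave 0.704, 0.919, 0.331, 1.60, 1.62, 2.37, 3.80, 4.24 and 6.15%. Run 2 gave 0.903, 1.08, 1.08, 0.956, 1.61, 2.45, 3.998, 4.80 and 10.3%. The runs were furthest apart at P28, by 4.14 points, which is more than the widest of these steps (3.04 points, from P14 to P28). In run 2 of P14, A to C had 56 reads (0.395%) and A to T 65 (0.459%), against 7 and 0 in run 1.

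At position 6 of the same miRNA, in the seed, the share was 0.211% at E10, 0.342% at E13, 0.413% at E17, 0.546% and 0.676% in the P0 replicates, 0.615% at P3, 0.974% at P7, 1.10% at P14 and 1.70% at P28. It was the lower of the rno-miR-378 sites in every sample. Counting intervals overlapped in 7 of the 8 pairs neighbouring in the order of the shares, with P14 and P28 as the exception. Run 1 gave 0.198, 0.350, 0.253, 0.539, 0.513, 0.673, 0.709, 0.678 and 1.40% in the order of the samples above. Run 2 gave 0.234, 0.331, 0.800, 0.565, 0.875, 0.557, 1.42, 1.61 and 2.31%. The runs were furthest apart at P14, by 0.933 points, which is more than the step from P14 to P28. The P0 mean was 0.611% ± 0.0919 (SD, n = 2). In run 1 of E10 A to C (30 reads) outnumbered A to G (27 reads), the only library in which this was so at a main site of rno-miR-378.

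Position 16 of rno-miR-137 had 1 changed read at E10 (0.110%), 1 at E13 (0.0669%), 6 at E17 (0.389%), 35 and 9 in the P0 replicates (0.308% and 0.515%), 15 at P3 (0.610%), 49 at P7 (1.82%), 52 at P14 (2.14%) and 77 of 2508 at P28 (3.07%). The P0 replicates averaged 0.412% ± 0.147 (SD, n = 2). The changed reads were 1, 1, 2, 29, 1, 5, 31, 20 and 38 in run 1 and 0, 0, 4, 6, 8, 10, 18, 32 and 39 in run 2. The shares of the 3 late samples were 1.99, 1.96 and 2.83% in run 1 and 1.60, 2.27 and 3.34% in run 2, against at most 0.499% and 0.686% earlier. Among samples neighbouring in the order of the shares, only P3 (0.370 to 1.004%) and P7 (1.38 to 2.40%) had counting intervals that did not overlap. At P14, A to C had 8 reads and A to T 7, all in run 2.

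At position 11 of rno-miR-137 no sample had more than 14 changed reads. The share was 0.110% at E10, 0.0668% at E13, 0.195% at E17, 0.0794% and 0.230% in the P0 replicates, 0.245% at P3, 0.189% at P7, 0.464% at P14 and 0.572% at P28. The changed reads were 1, 1, 2, 8, 0, 4, 4, 3 and 9 in run 1 and 0, 0, 1, 1, 4, 2, 1, 8 and 5 in run 2. Each of the 8 pairs neighbouring in the order of the shares had overlapping counting intervals, an order that places the most similar samples side by side. P14 (0.259 to 0.829%) and P28 (0.341 to 0.958%) had the highest shares. Their intervals were separate from that of P0 replicate 1 (0.0418 to 0.151%), where 9657 of 11341 reads were from run 1. They overlapped those of all other earlier samples. With tags of a single read left out, P14 was the highest.

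**Figure D2:**
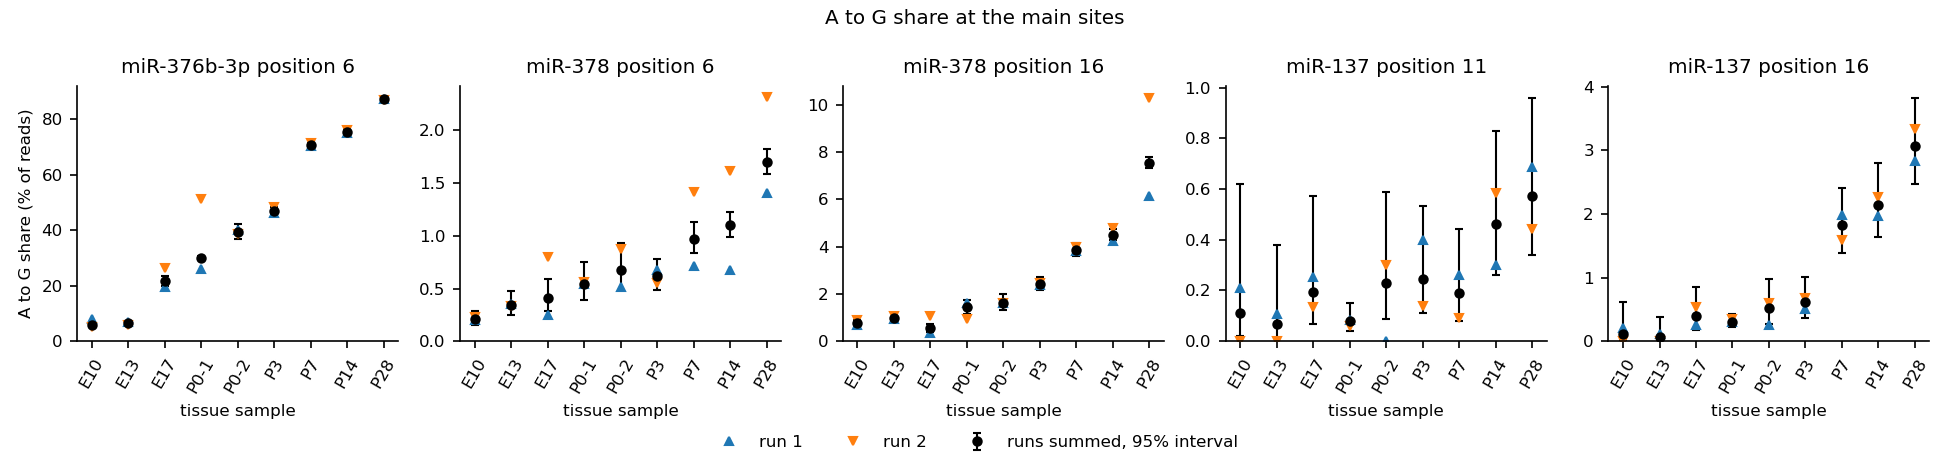
A-to-G share (% of reads, linear axes with different ranges) at the 5 main sites in the 9 tissue samples, with P0-1 and P0-2 for the P0 replicates. Black points are both runs summed with 95% Wilson intervals, and triangles are the single runs. At position 6 of rno-miR-376b-3p the points ran from 6.01% at E10 to 87.1% at P28, with the runs of P0 replicate 1 at 26.1% and 51.1%.

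The samples from P7 on lay above all earlier samples at 4 of the 5 sites. For rno-miR-376b-3p the 3 late samples had 70.6 to 87.1% against 6.01 to 46.9% in the 6 earlier ones. For rno-miR-378 they had 3.87 to 7.53% against 0.550 to 2.41% at position 16, and 0.974 to 1.70% against 0.211 to 0.676% at position 6. Position 16 of rno-miR-137 had 1.82 to 3.07% against 0.0669 to 0.610%. This separation was kept under each of the 10 settings of runs, tag lengths and mismatches tried for these 4 sites, but held under 1 of 10 for position 11 of rno-miR-137. With run 1 alone it was within counting error at position 6 of rno-miR-378, where P14 had 0.678% (0.564 to 0.816%) and P3 0.673% (0.491 to 0.922%). From E10 to P28 the share was 14.5 times higher for rno-miR-376b-3p, 9.75 times at position 16 and 8.07 times at position 6 of rno-miR-378. For rno-miR-137, the 1 read at E10 does not carry a ratio. Of the 7 marker lists, 3 were likewise higher in the 3 late samples than in all earlier ones: the oligodendrocyte markers (1714 to 10564 against at most 287 TPM), the muscle markers (899 to 1677 against at most 439 TPM) and the neural markers (156730 to 185386 against at most 143679 TPM). Their part in the shares was not tested.

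Across all miRNAs with at least 1000 reads over a site, 15 of 1426 adenosines, or 1.05%, reached an A to G share of 1% with at least 5 times the larger of the other changes. Of the 17 sites of the 3 miRNAs, 2 did: position 6 of rno-miR-376b-3p, ranked 2 of all sites, and position 16 of rno-miR-378, ranked 9. Position 6 of rno-miR-378 and position 16 of rno-miR-137 followed at ranks 16 and 17, just under 1%. Without run 1 of P0 replicate 1 all 4 passed, among 17 of 1413 adenosines (1.20%), and 4 sites of the 3 miRNAs also passed with run 2 alone, among 15 of 1288 (1.16%). Since the miRNAs were chosen for these changes, nothing is read from this count. The 1409 sites of the 318 other miRNAs had a median A to G share of 0.0399% and a 95th percentile of 0.152%, so that position 11 of rno-miR-137, at 0.201%, was just above that percentile. With the libraries pooled, as for the ranks, the highest share, 71.5%, was at position 11 of rno-miR-34b-5p. The table of mature sequences is not complete, so a change can also be a tag of a miRNA that it does not hold.

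Within the family, the other members with an A at position 6 differed from it in their shares. rno-miR-376b-3p differs from rno-miR-376a-3p by A4G, C13A and U20G, and from rno-miR-376c-3p by U2A, C13A, A14U, C16U and U20G, with the base of rno-miR-376b-3p first. Their sequences are shown for the shared A at position 6, with the seed in capitals.
rno-miR-376a-3p: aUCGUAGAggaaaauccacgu
rno-miR-376c-3p: aACAUAGAggaaauuucacgu
rno-miR-376c-3p, at chr6:134558256-134558276, had G at position 6 in 1801 of 11738 reads (15.3%), and in 13.9% without run 1 of P0 replicate 1. Its share was 1.87% at E10, 1.64% at E13, 2.06% at E17, 21.4% and 9.36% in the P0 replicates, 21.8% at P3, 25.9% at P7, 28.8% at P14 and 25.2% at P28. It was below that of rno-miR-376b-3p in each of the 9 samples and was no higher at P28 than at P14. rno-miR-376a-3p, at chr6:134559421-134559441, had G there in 48 of 132231 reads (0.0363%), near the median of the sites of other miRNAs. Of 11 brain miRNAs listed from general knowledge as targets of editing (miR-376a-3p, miR-376c-3p, miR-379-5p, miR-381-3p, miR-411-5p, miR-377-3p, miR-421-3p, miR-151-3p, miR-497-5p, miR-1251-5p and miR-3099), 9 had a sequence and 8 a site with enough reads. Of their 43 sites 5 were past the 1% rule, 1 in each of 5 miRNAs, against 13 of 1409 sites, in 13 miRNAs, over all 318 other miRNAs. They were in rno-miR-376c-3p, rno-miR-411-5p, rno-miR-377-3p, rno-miR-497-5p and rno-miR-3099. The list was made with earlier results of these data known, so nothing is read from these counts.

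Both changes of rno-miR-378 also occurred in the same tag. In 276 reads positions 6 and 16 were both G, against 91.9 summed over the 9 samples if the changes were independent within each sample, a ratio of 3.004. Position 16 was G in 15.1% (95% interval 13.5 to 16.8%) of the 1832 reads with G at position 6, and in 4.12% of the 161353 reads with A at position 6. The number of joint reads was above that of independent changes in 7 of the 9 samples. At E13 and in P0 replicate 1 it was 0, among 36 reads with G at position 6 in each, where independent changes would give 0.358 and 0.522 reads. E10, E17, P0 replicate 2 and P3 had 1 to 5 joint reads each. Most of these reads (212) were from P28, where the values were 20.8% and 7.54%. At P14 they were 9.07% and 4.52%, and at P7 11.2% and 3.88%. Without P28, 64 reads remained, with 7.87% against 2.57%. The value was 11.6% in run 1 and 18.3% in run 2. No read of rno-miR-137 carried both changes, where 0.492 reads would be given by independent changes, so that a joint change could not be measured there.

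Length was a property of the tags that had not been used to choose the miRNAs. In rno-miR-376b-3p, tags with G at position 6 were shorter than unchanged tags in 9 of 9 samples, with differences from -0.28 nt at E10 to -0.78 nt at E17. The mean difference was -0.58 ± 0.17 nt (SD, n = 9; exact two-sided sign-flip permutation test, Benjamini-Hochberg adjusted over 4 sites p = 0.00521). In rno-miR-378, tags with G at position 16 were longer in 9 of 9 samples, by 0.77 ± 0.18 nt (SD, n = 9; exact permutation test, adjusted p = 0.00521). Tags with G at position 6 of rno-miR-378 were shorter in 9 of 9 samples, by a difference of -0.20 ± 0.11 nt (SD, n = 9; exact permutation test, adjusted p = 0.00521), but with run 1 alone the adjusted p was 0.0938. The unadjusted p of these 3 sites, 0.00391, was the smallest that 9 samples allow. For position 16 of rno-miR-137 only 5 samples had at least 10 changed reads, and the difference of -0.11 ± 0.25 nt was within the spread between samples (n = 5, exact permutation test, p = 0.375, with 0.0625 the smallest possible). The 2 samples with enough reads at position 11 gave -0.67 nt at P14 and -0.19 nt at P28, without a test. Samples were the unit of these tests. Since each stage but P0 is 1 sample, they compare forms within samples and not stages.

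**Figure D3:**
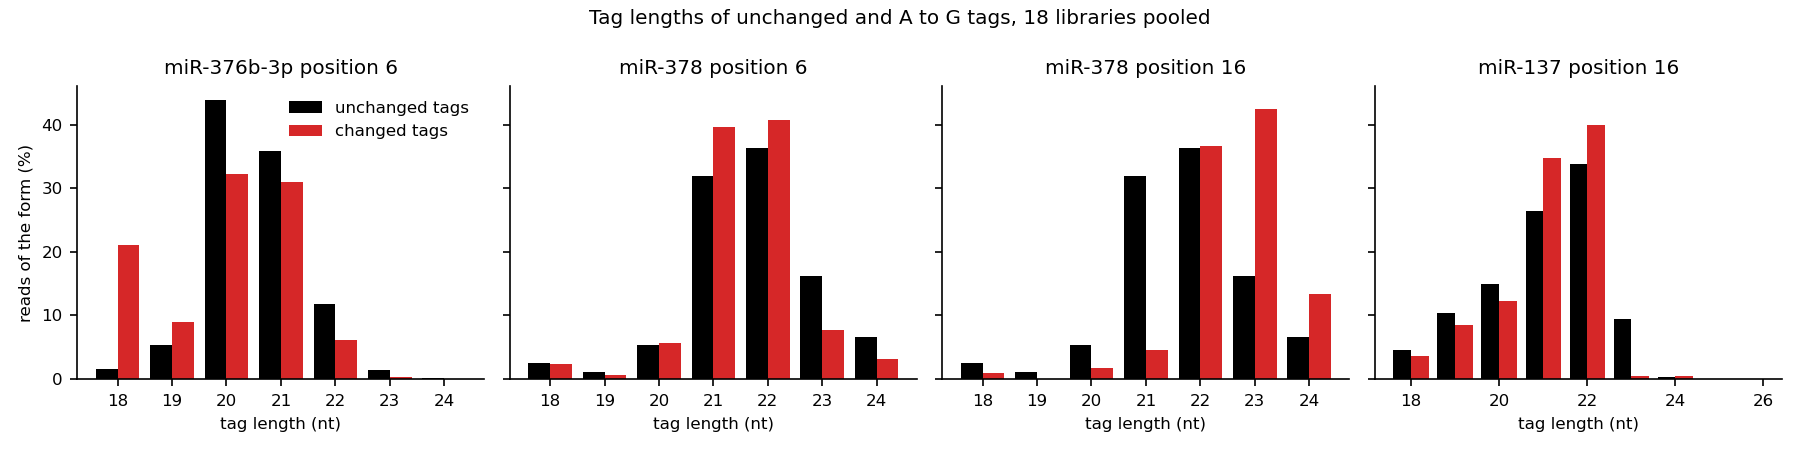
Reads of each form (%) by tag length (nt) for unchanged (black) and A-to-G changed (red) tags, 18 libraries pooled, at the 4 main sites with a length test. Over all libraries tags of 18 nt made up 21.1% of changed and 1.66% of unchanged rno-miR-376b-3p reads, and changed rno-miR-378 tags at position 16 were most often 23 nt long.

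In rno-miR-376b-3p a tag of 18 nt made up a larger part of the changed than of the unchanged reads and is printed here with the changed base in capitals beside the most frequent unchanged tag of 20 nt with its A at position 6 in capitals.
changed, 18 nt: aucauGgaggaacaucca
unchanged, 20 nt: aucauAgaggaacauccacu
The former had 5939 reads and was 21.1% of the changed reads, while tags of 18 nt were 1.66% of the unchanged reads. Without run 1 of P0 replicate 1 these were 17.9% and 1.30%. By sample, 18 nt tags were 2.41% (E10) to 28.1% (P0 replicate 1) of the changed and 0.154 to 2.21% of the unchanged reads. The runs differed: 37.0% of the changed reads had 18 nt in run 1 and 3.36% in run 2 of P0 replicate 1, 31.0% and 7.74% at P7, and 23.5% and 5.69% at P28. Run 1 had the larger part of 18 nt tags among the changed reads in each of the 9 samples, and the length difference was -0.72 nt with run 1 alone and -0.35 nt with run 2 alone. With tags of 18 and 19 nt left out it was -0.13 nt (exact permutation test, adjusted p = 0.0365).

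Shares therefore depended on the tag length. At position 6 of rno-miR-376b-3p the share was 91.8% in 18 nt tags, 60.5% in 19 nt, 40.0% in 20 nt, 43.9% in 21 nt, 32.2% in 22 nt and 20.98% in 23 nt tags. Without run 1 of P0 replicate 1 it was 94.5% in 18 nt, 77.8% in 19 nt, 58.8% in 20 nt, 50.1% in 21 nt, 34.7% in 22 nt and 22.1% in 23 nt tags. Tags of 20 nt, below those of 21 nt with that library, were above them without it. Shares from P7 on were also above those of all earlier samples within each length from 18 to 22 nt. In tags of 23 nt P7 (31.6%, 12 of 38 reads) was below P0 replicate 2 (35%) and P3 (34.9%). In tags of 20 nt the share was 7.81% at E10 and 85.4% at P28, with E13 (6.15%) below E10 and P0 replicate 1 (18.3%) below E17 (20.1%). In tags of 21 nt it was 6.96% at E10 and 85.5% at P28, with E13 (5.76%) below E10. At position 16 of rno-miR-378 the share was 1.65% in 18 nt, 0.291% in 19 nt, 1.42% in 20 nt, 0.613% in 21 nt, 4.16% in 22 nt, 10.1% in 23 nt and 7.98% in 24 nt tags. Without run 1 of P0 replicate 1 these were 1.69, 0.302, 1.48, 0.624, 4.26, 10.2 and 8.01%. Within 23 nt tags it was 1.19% at E10 and 15.6% at P28. In 21 nt tags, the length of the RefSeq sequence, it was 0.0483% (3 of 6214 reads) and 1.18%. In 20 nt tags E13 (0.866%, 4 of 462 reads) was above P7 (0.378%). At position 16 of rno-miR-137 the share was 0.734 to 1.18% in tags of 18 to 22 nt. In 23 nt tags, the length of its RefSeq sequence, it was 0.0394% (1 of 2536 reads). None of the 234 such reads at P14 and 258 at P28 had G there, so the late rise was not seen in them. The most frequent tags of rno-miR-378 with G at position 16 are printed with that base in capitals.
22 nt, 2365 reads: acuggacuuggagucGgaaggc
23 nt, 2234 reads: acuggacuuggagucGgaaggca

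**Figure D4:**
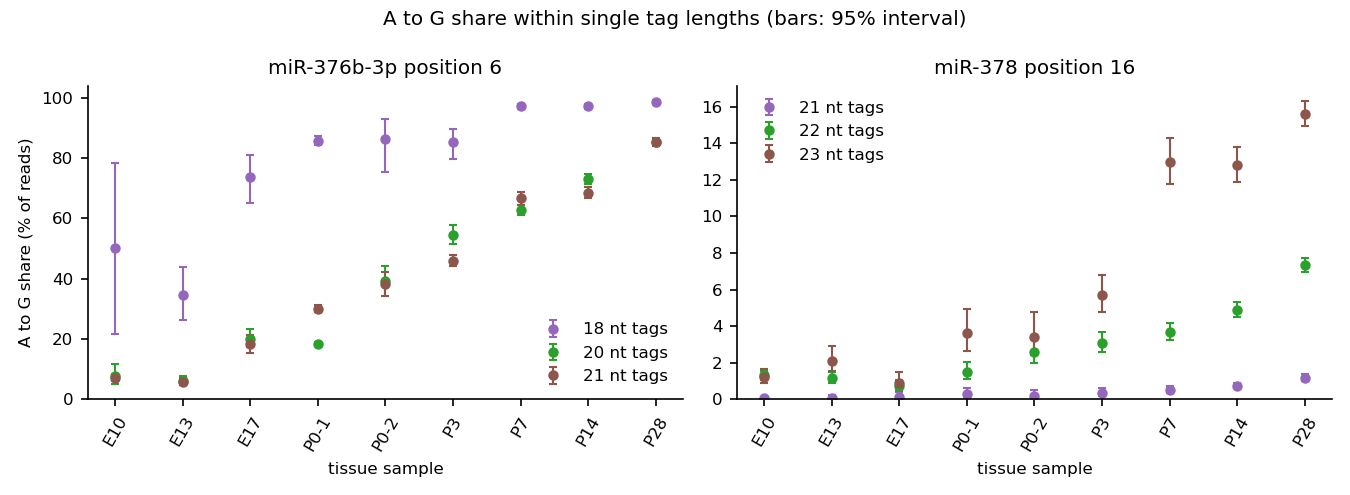
A-to-G share (% of reads) within tags of one length in the 9 tissue samples, with 95% Wilson intervals, at position 6 of rno-miR-376b-3p (left) and position 16 of rno-miR-378 (right). For rno-miR-376b-3p, tags of 20 and 21 nt lay at 7.81% and 6.96% at E10 and at 85.4% and 85.5% at P28, and tags of 18 nt lay at 98.7% at P28.

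Unchanged reads are part of the denominator of the shares, so the level of the unchanged miRNAs is not independent of the choice, and its slopes over the stage order are given without a test. In bulk tissue, fewer cells of a type and less RNA per cell cannot be told apart. rno-miR-376b-3p had 92.9 TPM at E10, 196 at E13, 70.9 at E17, 1045 and 35.6 in the P0 replicates, 110 at P3, 142 at P7, 124 at P14 and 44.4 at P28. The value of 1045 TPM came from runs of 1978 and 113 TPM, and the P0 samples differed more from each other than any of the other stages did. The slope of its log2 level over the stage order was -0.15 ± 0.28 per stage (SE; edgeR's quasi-likelihood fit over 9 samples).

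For rno-miR-378 the levels were 867 TPM at E10, 629 at E13, 369 at E17, 427 and 237 in the P0 replicates, 484 at P3, 1012 at P7, 2202 at P14 and 2133 at P28. They were lowest around birth and highest at P14 and P28, where run 1 gave 3521 and 3306 TPM and run 2 883 and 960 TPM. From E17 and P0 to P7, P14 and P28 the muscle markers went from at most 14.9 TPM to 899, 1677 and 1026 TPM, and the mesenchyme markers from at most 617 TPM to 3117, 4131 and 2827 TPM. Their part in the level of rno-miR-378 was not tested. The slope was 0.34 ± 0.08 per stage (SE), against a median slope of -0.09 over the 477 miRNAs fitted. Of these, 44.4% had a slope past the adjusted p of 0.05, 17.2% rising and 27.3% falling, and nothing is read from this for the 3 miRNAs. Without TMM, a scaling that assumes most miRNAs to be stable, the median slope was -0.18 and that of rno-miR-378 0.23.

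rno-miR-137 had 36.5 TPM at E10, 102 at E13, 95.3 at E17, 1099 and 95.5 in the P0 replicates, 143 at P3, 184 at P7, 183 at P14 and 129 at P28. Apart from run 1 of P0 replicate 1 (2043 TPM against 156 in run 2) the means from E13 on lay between 95.3 and 184 TPM. The slope was 0.12 ± 0.28 per stage (SE), and its sign turned when E10 (-0.16) or E13 (-0.05) was left out.

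The 2 forms of rno-miR-376b-3p crossed between P3 and P7. Levels of the forms count tags with the mature 5' end from either run. The changed form had 6.12 TPM at E10, 14.0 at E13, 18.8 at E17, 406 and 23.1 in the P0 replicates, 94.4 at P3, 339 at P7, 380 at P14 and 300 at P28. The unchanged form had 91.2 TPM at E10, 194 at E13, 70.5 at E17, 1040 and 35.1 in the P0 replicates, 107 at P3, 141 at P7, 122 at P14 and 43.6 at P28. From P7 on the changed form was the more abundant in both runs. Before P7 this was so in 1 library, run 2 of P0 replicate 1, with 116 against 111 TPM. With changed tags added to the unchanged ones, the slope of the sum was 0.29 per stage. That of the unchanged form was -0.15 ± 0.28 (SE), a sign within its error that turned positive when P28 was left out. Since the sum holds the changed reads, its slope is given without a test.

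Changed forms of the other two stayed minor in every sample. That of rno-miR-378 at position 16 was lowest at E17, 1.76 TPM, and highest at P28, 155 TPM, against 2028 TPM of the unchanged form there. The form of rno-miR-137 at position 16 was 0.0453 TPM at E10 and 3.07 TPM at P28, against 99.1 TPM unchanged.

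**Figure D5:**
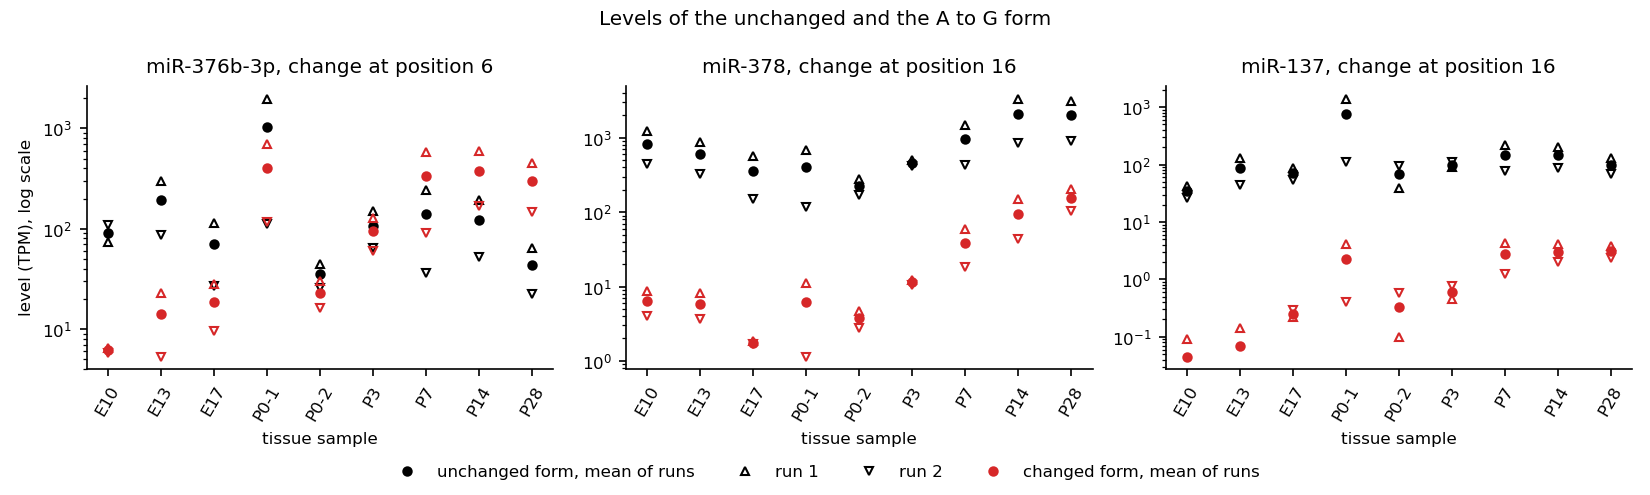
Level (TPM, log axis) of the unchanged (black) and the A-to-G changed (red) form in the 9 tissue samples for 1 site of each miRNA. Filled points are means of the runs, and open triangles the single runs. The forms of rno-miR-376b-3p crossed after P3, from 94.4 changed and 107 unchanged TPM at P3 to 300 and 43.6 TPM at P28.

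By Pearson's correlation of log2(TPM + 1) over the 9 samples, the miRNAs with levels most like the unchanged rno-miR-376b-3p, of 287 with a mean of at least 10 TPM, were miR-153-3p (r = 0.772), miR-137-3p (0.766) and miR-410-3p (0.760). For rno-miR-378 they were miR-192-5p (0.955), miR-409a-5p (0.947) and miR-143-3p (0.942), which is also on the mesenchyme list, and for rno-miR-137 miR-187-3p (0.778), miR-344b-3p (0.768) and miR-551b-3p (0.766). All points share their libraries, depth and run 1 of P0 replicate 1, so the values are a description.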

How the data were processed

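Tissue RNA was extracted with TRIzol, size-selected by PAGE and sequenced on an Illumina Genome Analyzer. Reads of low quality, adaptor sequence and contaminants had been taken out by the authors. Each deposited file lists unique tags with their length and raw read counts for 1 library. The study also filtered edited tags with a SNP database, which was not done here. The members and lists were chosen with earlier results of these data known.

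Libraries were grouped by stage, with P0 as 2 tissue samples, and the runs of a sample were summed. Tags were matched to 692 distinct mature sequences of RefSeq (GRCr8). Tags identical to another miRNA were left out of the shares over all sites. Main sites and the 3 most similar miRNAs were named by the rules given with their values. The 11 editing targets and the cell markers were listed from general knowledge: miR-124-3p, miR-9a-5p and miR-128-3p (neural), miR-199a-3p, miR-214-3p, miR-143-3p and miR-145-5p (mesenchyme), miR-1-3p, miR-133a-3p and miR-206-3p (muscle), miR-451-5p and miR-144-3p (erythroid), miR-142-3p and miR-223-3p (leukocyte), miR-219a-2-3p and miR-338-3p (oligodendrocyte) and miR-122-5p (liver). Levels allowed no mismatch, a 5' end within 3 nt of the mature one and an overhang of up to 3 nt at the 3' end. TPM used tags seen in both runs, per 1000000 clean reads, averaged over runs. Slopes over stage order (1 to 8) came from edgeR 4.0.16 under R 4.3.3 (quasi-likelihood test, TMM, counts of at least 10 in at least 2 samples, Benjamini-Hochberg over 477 miRNAs), with DESeq2 1.42.0 as an alternative (limma 3.58.1 was loaded by edgeR). TMM factors lay between 0.507 and 2.10, with a biological coefficient of variation of 0.617. The hairpin was folded with ViennaRNA 2.7.2. Other steps ran in Python 3.11.15 with pandas 2.3.3, numpy 2.4.6, matplotlib 3.10.9 and scipy 1.17.1. Tag matching, the shares, the search for single changes, the length test and the slopes were tested on simulated data, and the other steps were not. Alternatives were single runs, tag filters, normalization, a run block and leaving out samples.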

Additional observations from a re-analysis of the deposited data

How the results depend on the processing

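The late samples stayed above the early ones at 4 of 5 sites under each setting tried, at position 6 of rno-miR-378 with run 1 alone by less than counting error (0.678% at P14 against 0.673% at P3), but single values moved. At P28 the share of rno-miR-376b-3p was 83.9% in tags of at least 20 nt. Position 6 of rno-miR-378 at P28 was 1.40% in run 1, 2.31% in run 2 and 1.86% as the mean of the runs. Position 16 of rno-miR-378 at P28 was 6.15%, 10.3% and 8.22% in the same way, and 7.77% with 5' ends shifted by 1 nt. Position 11 of rno-miR-137 at P28 was 0.288% when tags of a single read were left out. In a setting chosen after seeing the data, without run 1 of P0 replicate 1, the pooled shares were 57.3% for rno-miR-376b-3p and 0.266% and 1.24% for positions 11 and 16 of rno-miR-137. Within single tag lengths, 21 of 64 pooled shares moved beyond counting error without that library or without P0 replicate 1, a setting also chosen after seeing the data. The joint change of rno-miR-378, in settings also chosen after seeing the data, was 11.6% in run 1, 18.3% in run 2 and 7.87 to 16.6% when 1 sample was left out, the lowest without P28.

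With run 1 alone 118 slopes passed the threshold, and with 1 sample left out 145 to 228. Without TMM 45 of 222 calls were rising (20.3%) against 82 of 212 (38.7%). The slope of rno-miR-376b-3p was 0.29 with changed tags added, 0.0030 without run 1 of P0 replicate 1 and -0.41 to 0.15 with 1 sample left out, positive without P28. That of rno-miR-378 was 0.23 without TMM, and that of rno-miR-137 -0.16 to 0.45 with 1 sample left out. With the run number as a replicate block over the 18 libraries, 300 of 475 slopes passed, and the slopes were -0.13, 0.34 and 0.16 for rno-miR-376b-3p, rno-miR-378 and rno-miR-137. That fit treats the runs of 9 tissue samples as 18 independent libraries, so its p-values are too small and its count of calls too high. The deviations of the run 1 libraries correlated between tissue samples with a median of 0.341 (0.0623 to 0.954 over 36 pairs), and the run numbers name technical runs.

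The length difference at position 6 of rno-miR-378 was -0.13 nt in run 1 (exact permutation test, adjusted p = 0.0938) and -0.29 nt in the 4 samples with at least 50 changed reads (exact permutation test, adjusted p = 0.125, the smallest that 4 samples allow), so the latter says nothing on stability. At position 11 of rno-miR-137 it was 0.098 nt in tags of at least 20 nt, from 1 sample. At position 16 of rno-miR-137 it was 0.15 nt in run 1 and -0.36 nt in run 2, from 4 samples each. Adenosines past the rule numbered 6 at a share of 5% and 27 with tags identical to other miRNAs kept. The cause of these moves was not tested. For rno-miR-137, 911 to 11369 reads a sample limit what can be seen below 0.329% (3 reads at E10).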
